A study of Rattus norvegicus with 144 samples.

Results

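The genes described are Tek, Tie1, Angpt1, Angpt2 and Ptprb, the receptors, ligands and receptor phosphatase of the angiopoietin-Tie system, measured in liver, adrenal gland and pancreas of rats on Affymetrix arrays. A probe set, the group of short probes that reads 1 transcript, was taken where its platform annotation names 1 of these 5 genes and no other. This gave 6 of the 31042 probe sets of the larger deposited table, 1 each for Tek, Tie1, Angpt1 and Angpt2 and 2 for Ptprb, called here the first (1389332_at) and the second (1391669_at). The smaller table of 15866 probe sets holds 3 of them, for Tie1, Angpt2 and Ptprb (the first), so Tek and Angpt1 were not measured in the livers it covers. The arrays came from male Sprague Dawley rats of 8 to 10 weeks given AMG A or AMG B by mouth once a day, and the design describes the expected pharmacology as antiangiogenic. The AMG A study had groups at 0, 3 and 30 mg/kg and the AMG B study at 0, 3 and 60 mg/kg, each group with 4 rats. Livers were taken after 1, 4 and 14 days in both studies, adrenal glands after 1, 4 and 14 days under AMG B and after 14 days under AMG A, and pancreas after 14 days in both. This makes 36 groups and 144 arrays from 72 animals. What the control animals were dosed with is not given in the sources used here, and AMG A and AMG B are code names, with no structure given.

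Tek, also called Tie2, is the endothelial receptor tyrosine kinase that binds the angiopoietins. Angpt1, made mainly by perivascular cells, activates Tek and keeps vessels quiet and tight, whereas Angpt2, made by endothelial cells, acts against it in many settings and is raised where vessels are remodelled. Tie1 is a related endothelial receptor, long treated as an orphan, that tunes Tek signalling, and Ptprb (VE-PTP) is an endothelial phosphatase that removes phosphate from Tek. Because whole tissue was assayed, fewer endothelial cells and less RNA per endothelial cell cannot be told apart in any of the values that follow.

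The deposited values are scores: each probe set has a mean near 0 and an SD near 1 over the arrays, so a score states how many SDs an array lies above or below that probe set's own mean. A difference of scores is therefore neither a fold change nor an amount that can be set against that of another gene. Tissue identity was clear from the cell type markers, since in the day 14 controls of the AMG B study the mean hepatocyte score was 0.41 to 0.62 in liver and below -0.90 in the other tissues, and the acinar score was 2.32 to 3.13 in pancreas. In adrenal gland the cortex score was 1.23 to 1.50. Some arrays stood apart from their group. In the day 14 adrenal group at 60 mg/kg of AMG B, animal 35 correlated at 0.58 with the other 3 arrays, against a median of 0.77 for adrenal arrays, and its mean endothelial score was 1.11 against -0.28 to 0.02 in those 3. In the pancreas, animal 30 at 3 mg/kg of AMG B correlated at 0.34 with its group, against a median of 0.70, and animal 33 at 60 mg/kg at 0.43. In liver, animal 35 at 60 mg/kg on day 14 correlated at 0.53, against a median of 0.73. Results that rest on these animals are given with and without them.

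Control animals showed how the genes lie across the tissues. On day 14 of the AMG B study, 5 of the 6 probe sets were higher in adrenal gland than in liver, where 23.8% of all probe sets were. Tek scores were 1.51, 1.34, 1.10 and 0.86 in adrenal gland, 0.67, -0.52, 0.34 and 1.12 in pancreas and -0.39, 0.10, -0.22 and -1.20 in liver. Every adrenal value lay above every liver value, as for 29.7% of all probe sets, and pancreas lay between and overlapped both. Tek was higher in adrenal gland than in liver by 1.63 (95% confidence interval 0.99 to 2.27, limma adjusted p = 7.7e-05). Its smaller steps of 0.80 from pancreas to adrenal gland (adjusted p = 0.029) and of 0.83 from liver to pancreas (adjusted p = 0.027) passed the test, but the first failed without animal 25, 26 or 27 and the second without animal 25 or 28, when they fell to as little as 0.45 (adjusted p = 0.26) and 0.33 (adjusted p = 0.43). Tie1 averaged 1.64 ± 0.64 (SD, n = 4) in adrenal gland, 0.23 ± 0.65 in pancreas and -0.38 ± 0.98 in liver. For Tie1 the adrenal value exceeded the liver value by 2.02 (adjusted p = 0.018), a call lost without animal 27 (1.95, adjusted p = 0.066) or 28 (1.81, adjusted p = 0.089), whereas neither tissue could be separated from pancreas (adjusted p = 0.084 and 0.48).

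Both ligands were higher in the adrenal gland than in either other tissue in these day 14 controls. Angpt2 scores were 2.13, 1.90, 1.45 and 1.96 in adrenal gland, -0.32, -0.08, -0.79 and 0.07 in liver and -1.29, -0.93, -0.60 and -0.87 in pancreas. No adrenal value came near those of the other tissues: the difference was 2.14 from liver (adjusted p = 0.0001) and 2.78 from pancreas (adjusted p = 1.6e-06), while liver and pancreas did not differ beyond their spread (adjusted p = 0.20). Angpt1 averaged 1.03 ± 0.41 in adrenal gland, -0.27 ± 0.45 in pancreas and -0.67 ± 0.24 in liver. Adrenal Angpt1 was again wholly above both (29.3% of all probe sets lay wholly above pancreas), by 1.30 over pancreas (adjusted p = 0.00026) and 1.70 over liver (adjusted p = 1.1e-05), and the latter tissues were not separated (adjusted p = 0.25). Over the 12 adrenal controls of days 1, 4 and 14 Angpt1 ran from -1.29 to 1.62, and the tissues were compared on day 14 alone. In the comparison of adrenal gland with pancreas 4 of 6 member probe sets were higher, where 29.4% of all probe sets were. The fourth was the second Ptprb probe set (1.08, adjusted p = 0.013), a call lost without animal 28 (0.73, adjusted p = 0.15), under quantile normalization (adjusted p = 0.054) and with the mean of the Ptprb probe sets (adjusted p = 0.070).

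The Ptprb probe sets did not rank the tissues alike. The first averaged 1.59 ± 0.38 in adrenal gland, 1.27 ± 0.87 in pancreas and 0.18 ± 0.57 in liver, whereas the second averaged 0.28 ± 0.36, -0.80 ± 0.47 and 0.30 ± 0.39. From liver to pancreas the first was higher by 1.09 (adjusted p = 0.018) and the second lower by 1.10 (difference -1.10, adjusted p = 0.013). Of the 6 probe sets, 2 were higher and 1 lower in that comparison, shares near the 27.6% and 26.6% of all probe sets. The call for the first failed without animal 27 (0.64, adjusted p = 0.23) or 28 (0.87, adjusted p = 0.12), and that for the second without animal 25 (-0.90, adjusted p = 0.095). Ptprb levels are therefore given per probe set throughout.

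**Figure D1:**
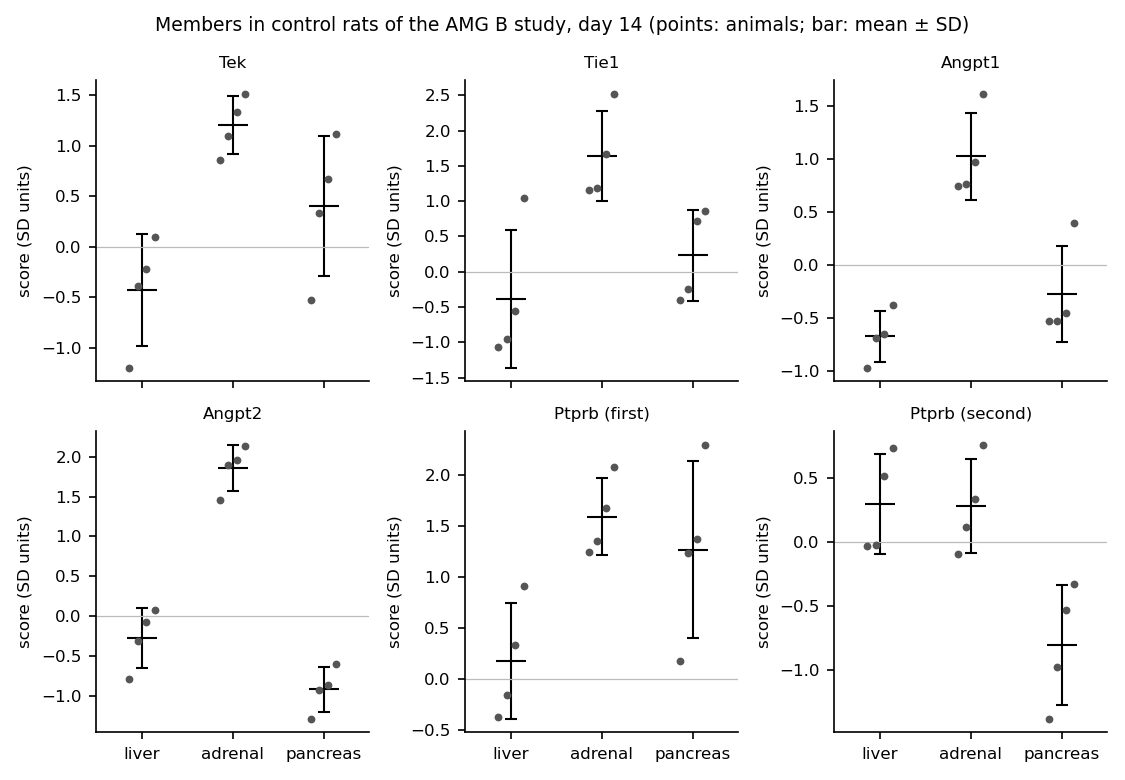
Scores (y axis, SD units) of the 6 member probe sets in control liver, pancreas and adrenal gland on day 14 of the AMG B study; each point is 1 animal and each dash with whiskers the mean ± SD of 4. Angpt1 and Angpt2 in adrenal gland sit wholly above liver and pancreas, and the Ptprb probe sets order liver and pancreas in opposite ways.

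Under AMG B at 60 mg/kg, 12 of the 42 comparisons of a member probe set with its same-day controls passed the test, each of them lower than control. In adrenal gland 1 of 6 probe sets fell on day 1, where 0.18% of all probe sets fell, 2 of 6 on day 4 (0.593%) and 3 of 6 on day 14 (2.85%). In liver 0 of 6 passed by limma on day 1 (0.0354% of all fell) and 0 of 6 on day 4 (0.267%), with 1 and 3 of them at an unadjusted p under 0.05, as were 8.0% and 12.1% of all probe sets, and 3 of 6 fell on day 14 (2.71%). In pancreas, sampled on day 14, 3 of 6 fell (4.9%). The called genes were the receptors Tek and Tie1 and the phosphatase Ptprb, and no comparison of Angpt1 or Angpt2 with controls passed. Fitted on the 8 arrays of each comparison alone, 4 of the 12 calls held, those of adrenal Tek on days 1 and 14 and of both Ptprb probe sets in pancreas (adjusted p = 0.033, 0.0080, 0.038 and 0.048), and the other 8 had adjusted p of 0.052 to 0.27. At 3 mg/kg of AMG B 0 of 42 comparisons passed by limma. Of these 11 had an unadjusted p under 0.05, as had 4.57% to 8.79% of all probe sets.

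Tek in the adrenal gland was the only member called on day 1 at 60 mg/kg. In that comparison 3 of 6 member probe sets had an unadjusted p under 0.05, as had 8.92% of all probe sets. An order in time among the members was therefore not shown. On day 1 Tek scores were 2.40, 1.71, 2.55 and 2.22 in controls, 1.28, 0.80, 0.82 and 1.03 at 3 mg/kg and 0.25, 0.27, -0.08 and 0.08 at 60 mg/kg. The 3 groups did not overlap and stood in order of dose 1 day after dosing began, and 3.22% of all probe sets lay wholly below control at 60 mg/kg. At 60 mg/kg Tek fell by 2.09 (interval -2.58 to -1.60, adjusted p = 2.6e-06), from 2.22 ± 0.37 to 0.13 ± 0.17. The difference at 3 mg/kg was -1.24 (interval -1.73 to -0.75, adjusted p = 0.069), a comparison in which 1.75% of all probe sets lay wholly below the controls.

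Adrenal Tek stayed low at the later days. On day 4 it was 1.84, 1.46, 0.46 and 1.81 in controls, 0.40, 0.38, 0.95 and 1.06 at 3 mg/kg and -0.07, -0.41, -0.29 and -0.32 at 60 mg/kg. The high-dose values lay below every other value of that day (3.51% of all probe sets were wholly below control), a fall of 1.67 (interval -2.15 to -1.18, adjusted p = 9.0e-05), and the low-dose values overlapped the controls (-0.70, adjusted p = 0.50). On day 14 the control values given above stood against -0.21, 0.29, -0.02 and 0.29 at 3 mg/kg and -1.39, -1.62, -1.15 and -1.83 at 60 mg/kg. The 3 groups were again apart in order of dose, and 3.71% of all probe sets at 60 mg/kg lay wholly below 3 mg/kg. Tek at 60 mg/kg fell by 2.70 on day 14 (interval -3.19 to -2.21, adjusted p = 7.8e-10) and lay 1.58 below the 3 mg/kg group (difference -1.58, adjusted p = 6.0e-05), the only day on which the doses differed by the test. The low-dose difference from control was -1.12 (adjusted p = 0.093), and 1.64% of all probe sets were wholly below control there. Control Tek itself was lower on day 14 than on day 1 by 1.02 (difference -1.02, adjusted p = 0.0018), and the high-dose effect on day 14 was not separable from that on day 1 (-0.61, interval -1.30 to 0.08, adjusted p = 0.44).

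Tie1 in the adrenal gland passed the test at 60 mg/kg on days 4 and 14 and leaned the same way on day 1. On day 1 its scores were 1.57, 2.15, 3.06 and 1.12 in controls and 0.19, 0.04, 1.35 and 0.62 at 60 mg/kg, groups that overlapped by 1 animal (-1.43, adjusted p = 0.21). On day 4 controls were at 1.32, 2.06, 1.78 and 2.64, the 3 mg/kg group at 1.19, -0.61, -0.59 and 1.67 and the 60 mg/kg group at 0.26, -0.93, -1.24 and -0.89. Of the low-dose animals 2 lay near or within the control range and 2 far below it, while the high-dose values were all below control. At 60 mg/kg Tie1 fell by 2.65 (interval -3.59 to -1.71, adjusted p = 0.0014). At 3 mg/kg it differed from control by -1.29 on day 1 and -1.54 on day 4, and neither difference passed.

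On day 14 adrenal Tie1 was 1.18, 2.52, 1.16 and 1.67 in controls, -0.15, 0.81, 1.11 and 0.40 at 3 mg/kg and -1.38, -1.52, 0.17 and -1.69 at 60 mg/kg. Controls lay above every dosed animal, and animal 35 was the high-dose animal whose value reached the low-dose range. Tie1 at 60 mg/kg fell by 2.74 (interval -3.68 to -1.80, adjusted p = 0.00016), and by 3.17 without animal 35 (adjusted p = 2.5e-05). The difference between the doses was -1.65 (adjusted p = 0.030), and it failed the test without any 1 of 6 of the 8 animals (-1.70 to -1.45, adjusted p = 0.054 to 0.10). At 3 mg/kg the difference from control was -1.10 (adjusted p = 0.75). In the comparison of the doses 2 of 6 member probe sets were lower, Tek and Tie1, where 2.11% of all probe sets were.

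Ptprb in the adrenal gland differed between its probe sets and between days. On day 14 the first was at 1.36, 2.09, 1.24 and 1.68 in controls, -0.22, 0.50, 1.37 and 0.98 at 3 mg/kg and -0.60, 0.03, 0.85 and -0.42 at 60 mg/kg. The high-dose values lay wholly below control and overlapped the low-dose values. At 60 mg/kg the score fell by 1.63 (interval -2.29 to -0.97, adjusted p = 0.0013), and by 1.92 without animal 35 (adjusted p = 0.00022). On day 1 the same probe set showed a difference of 0.12 (interval -0.54 to 0.78, adjusted p = 0.98), with 1.34, 0.92, 1.65 and 1.56 in controls and 1.76, 1.55, 1.27 and 1.37 at 60 mg/kg. Those groups overlapped on the day that Tek was already low. The day 14 effect minus the day 1 effect was -1.75 (interval -2.69 to -0.82, adjusted p = 0.046), the single member of 6 for which this difference passed, where 0.49% of all probe sets were lower. That call failed without any 1 of 13 of the 16 animals, with values of -1.85 to -1.56 and adjusted p up to 0.10. The second Ptprb probe set differed from control by 0.16 on day 1, -0.83 on day 4 and -0.73 on day 14 (adjusted p = 0.97, 0.30 and 0.22), with overlap on each day.

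**Figure D2:**
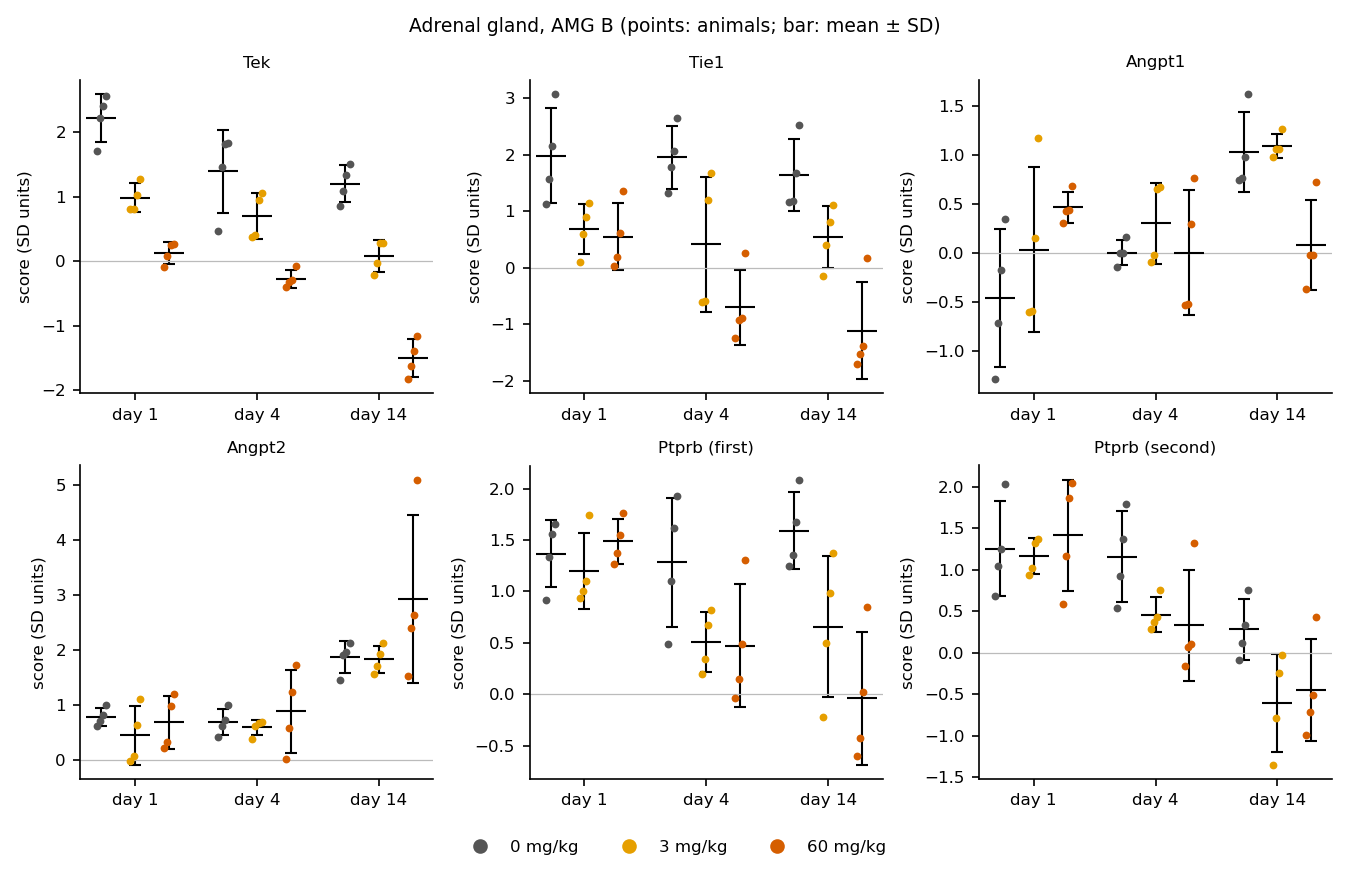
Scores (y axis, SD units) of the member probe sets in adrenal gland of the AMG B study on days 1, 4 and 14 at 0, 3 and 60 mg/kg; each point is 1 animal and each dash with whiskers the mean ± SD of 4. Tek at 60 mg/kg lies below all controls on each day, Tie1 on days 4 and 14, and 1 animal at 60 mg/kg carries the high Angpt2 value of 5.09 on day 14.

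Neither adrenal ligand passed the test against controls on any day, and ligands were not tested against receptors. On day 14 at 60 mg/kg 6 of 6 member probe sets had an unadjusted p under 0.05, as had 18.8% of all probe sets. Angpt2 was higher there and the others lower. Angpt1, the activating ligand, was 0.34, -0.18, -1.29 and -0.72 in controls and 0.43, 0.31, 0.68 and 0.44 at 60 mg/kg on day 1, a difference of 0.93 (interval 0.07 to 1.78, adjusted p = 0.49). On day 14 the 60 mg/kg values were -0.03, 0.72, -0.02 and -0.37 against 0.98, 0.75, 0.76 and 1.62 in controls. On day 1 the groups overlapped with the dosed animals on the high side, and on day 14 the dosed animals lay wholly below control, as 5.12% of all probe sets did. The day 14 difference was -0.95 (interval -1.81 to -0.10, adjusted p = 0.20), and its change from day 1 was -1.88 (interval -3.09 to -0.67, adjusted p = 0.11). Control Angpt1 itself was higher on day 14 than on day 1 by 1.49 (adjusted p = 0.0083), and control Angpt2 by 1.07 (adjusted p = 0.040). In that comparison 2 of 6 members were higher, where 14.2% of all probe sets were, and 2 of 6 were lower, Tek and the second Ptprb probe set (-0.97, adjusted p = 0.030), where 11.1% were. The Angpt2 call was lost without any 1 of 6 of the 8 animals (0.98 to 1.08, adjusted p = 0.069 to 0.097), and the Ptprb call without animal 3, 4, 25 or 27 (-0.98 to -0.71, adjusted p = 0.053 to 0.15). The days were different animals. Between them 7863 of 31042 probe sets differed in control adrenal gland, against 0 in control liver of the same study. What lies behind these control shifts was not tested.

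Angpt2 in the adrenal gland was high in 1 animal. On day 14 it was 2.13, 1.90, 1.45 and 1.96 in controls, 1.70, 2.13, 1.56 and 1.92 at 3 mg/kg and 2.64, 1.53, 5.09 and 2.40 at 60 mg/kg. Of the 4 high-dose animals, 3 were above every control, and animal 35 was far above the rest. The difference was 1.05 (interval 0.26 to 1.85, adjusted p = 0.11). Without animal 35 it was 0.33 (adjusted p = 0.66), and without animal 34, the lowest of the group, 1.52 (adjusted p = 0.010). Animal 35 also had a mean tip-cell score of 2.28, a pericyte and smooth muscle score of 1.67 and an adrenal medulla score of 0.24 against 1.73 to 2.35 in the other 3 arrays. What part these differences had in its Angpt2 value was not tested. On days 1 and 4 the Angpt2 differences at 60 mg/kg were -0.10 and 0.20 (adjusted p = 0.99 and 0.92).

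In liver the same genes were lower after 14 days at 60 mg/kg of AMG B. Tek was -0.39, 0.10, -0.22 and -1.20 in controls and -1.37, -1.61, -1.78 and -1.10 at 60 mg/kg, a fall of 1.03 (interval -1.61 to -0.46, adjusted p = 0.028). Tie1 was -0.55, 1.04, -1.06 and -0.96 in controls and -1.91, -1.77, -1.10 and -2.17 at 60 mg/kg, a fall of 1.35 (interval -2.20 to -0.51, adjusted p = 0.04997, just under the threshold of 0.05). The first Ptprb probe set was at 0.33, 0.91, -0.16 and -0.37 in controls and -0.77, -0.54, -1.06 and -0.64 at 60 mg/kg, a fall of 0.93 (interval -1.41 to -0.46, adjusted p = 0.016). Tie1 and Ptprb were wholly below control, as 4.95% of all probe sets were, and Tek overlapped in 1 animal. The 3 calls were sensitive to single animals: without control animal 26 the differences were -0.86 for Tek (adjusted p = 0.11), -0.88 for Tie1 (adjusted p = 0.23) and -0.69 for Ptprb (adjusted p = 0.088). The Tek call was also lost without animal 25, 27, 34 or 35, that of Tie1 without 25, 33, 34 or 36 and that of Ptprb without 35 (adjusted p up to 0.082, 0.12 and 0.054). The second Ptprb probe set, Angpt1 and Angpt2 differed by -0.22, -0.14 and -0.26 (adjusted p = 0.73, 0.81 and 0.33).

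Earlier livers leaned the same way without passing the test. On day 4 the 60 mg/kg livers lay wholly below control for Tek (-0.61, adjusted p = 0.38), Tie1 (-1.38, adjusted p = 0.12) and the first Ptprb probe set (-0.75, adjusted p = 0.14), as 3.82% of all probe sets did. The Tie1 scores behind this were 0.89, -0.72, 0.27 and -0.25 in controls and -0.85, -1.21, -2.03 and -1.24 at 60 mg/kg. On day 1 Tek differed by -0.62 (adjusted p = 0.59). At 3 mg/kg, Tek in liver differed from control by -0.20, -0.04 and -0.38 on days 1, 4 and 14 (adjusted p = 0.91 or more). Between the doses on day 14, the first Ptprb probe set was lower at 60 mg/kg by 0.84 (difference -0.84, adjusted p = 0.037), 1 of 6 members against 1.62% of all probe sets, and the call failed without any 1 of 5 of the 8 animals (-0.91 to -0.74, adjusted p = 0.053 to 0.12).

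**Figure D3:**
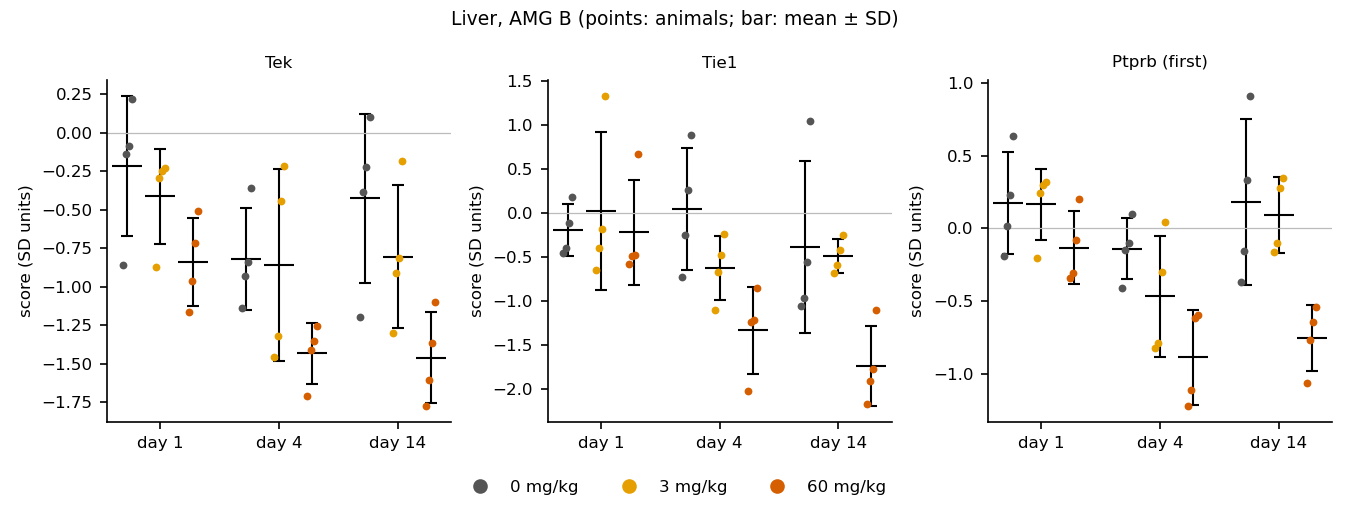
Scores (y axis, SD units) of Tek, Tie1 and the first Ptprb probe set in liver of the AMG B study on days 1, 4 and 14 at 0, 3 and 60 mg/kg; each point is 1 animal and each dash with whiskers the mean ± SD of 4. All 3 at 60 mg/kg lie below every control on day 4 and, but for 1 control animal for Tek, on day 14.

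In pancreas, Tek and both Ptprb probe sets were lower at 60 mg/kg. Tek was 0.67, -0.52, 0.34 and 1.12 in controls and -0.96, -1.75, -1.31 and -0.86 at 60 mg/kg, a fall of 1.62 (interval -2.38 to -0.86, adjusted p = 0.0089). The first Ptprb probe set was at 1.23, 0.18, 2.30 and 1.37 in controls and -0.70, -1.01, -0.75 and -0.88 at 60 mg/kg, a fall of 2.11 (interval -3.10 to -1.12, adjusted p = 0.0089). The second was at -0.97, -0.53, -0.33 and -1.38 in controls and -1.80, -2.55, -2.80 and -1.82 at 60 mg/kg, a fall of 1.44 (interval -2.14 to -0.74, adjusted p = 0.011). In each of the 3 the groups did not overlap, as was so for 9.52% of all probe sets in this direction. Without animal 33 the falls were 1.70, 2.15 and 1.59 (differences -1.70, -2.15 and -1.59, adjusted p = 0.015, 0.019 and 0.012). Acinar cell genes fell in the same pancreases in 8 of 8 cases, with and without animal 33, where 4.9% and 2.85% of all probe sets fell. Their mean score was 2.32 to 3.13 in controls and 1.54 to 1.73 at 60 mg/kg. Lymphocyte scores reached 4.82 in animal 33 against at most 0.16 in controls, and were 3.37 and 3.39 in animals 29 and 31 at 3 mg/kg. The part of these shifts in the pancreatic values was not tested.

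Tie1 in pancreas was too variable to place. At 60 mg/kg it was 1.63, -0.41, -1.21 and -1.23 against -0.40, 0.86, -0.24 and 0.72 in controls, a difference of -0.54 (interval -2.22 to 1.15, adjusted p = 0.72), and -1.18 without animal 33 (adjusted p = 0.44). At 3 mg/kg animal 30 was at 4.08 and the others at 0.05, -0.19 and -0.37. That difference was 0.66 (adjusted p = 0.84), and -0.40 without animal 30 (adjusted p = 0.87). Angpt2 at 3 mg/kg was -0.48, -0.47, -0.20 and -0.40, wholly above the controls, as 1.89% of all probe sets were (difference 0.53, adjusted p = 0.62). At 60 mg/kg it spread from -1.10 to 0.55 (difference 0.52, adjusted p = 0.29), and Angpt1 differed by 0.35 (adjusted p = 0.40). Tek and the first and second Ptprb probe sets differed from control by -0.56, -1.37 and -0.67 at 3 mg/kg in pancreas. No member passed by limma there, and 1 of 6 had an unadjusted p under 0.05, as had 8.79% of all probe sets.

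**Figure D4:**
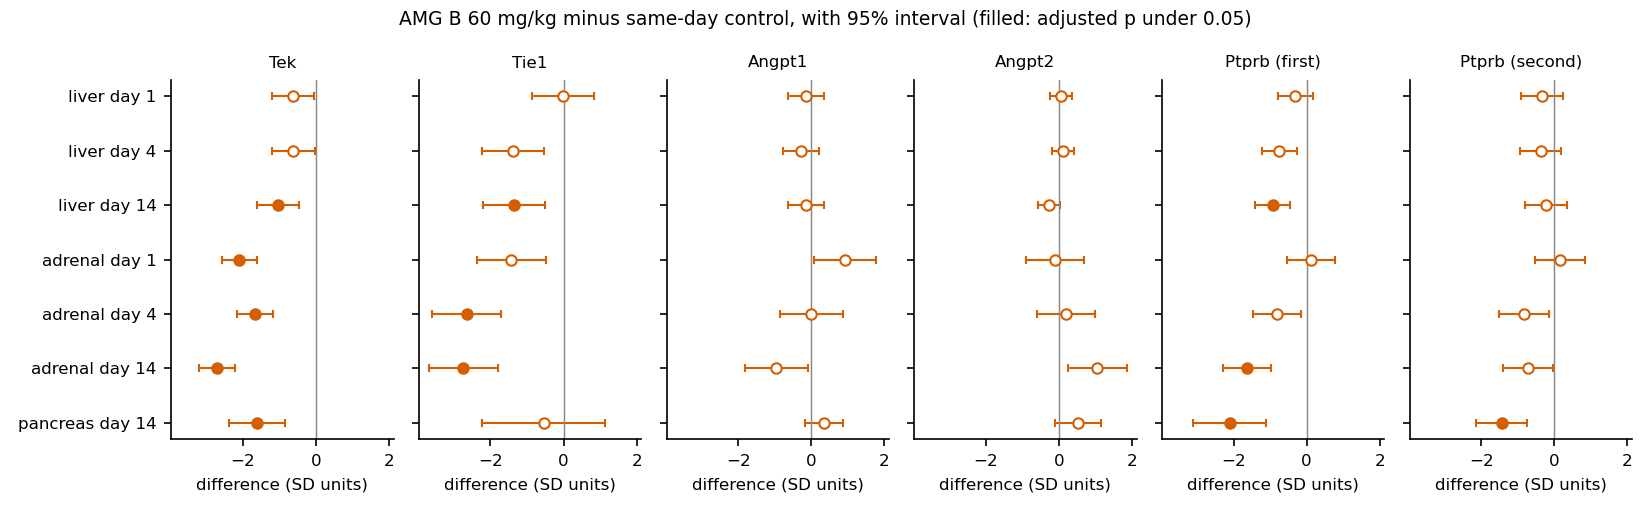
Difference of mean scores (x axis, SD units) between AMG B at 60 mg/kg and same-day controls for each member probe set, tissue and day, with 95% confidence intervals. Filled points have an adjusted p under 0.05: these 12 differences are those of Tek, Tie1 and Ptprb and lie below 0, from -0.93 to -2.74.

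Tissues were then compared for the size of the high-dose effect on day 14. The Angpt1 effect was lower in adrenal gland than in pancreas by 1.30 (difference -1.30, interval -2.13 to -0.48, adjusted p = 0.036), 1 of 6 members where 3.74% of all probe sets were lower. This call failed without any 1 of 6 of the 8 animals (-1.35 to -1.02, adjusted p = 0.062 to 0.15). The Tek effect was more negative in adrenal gland than in liver by 1.66 (difference -1.66, interval -2.57 to -0.76, adjusted p = 0.064), and more negative than in pancreas by 1.08 (difference -1.08, interval -1.99 to -0.18, adjusted p = 0.12), so neither passed (0.461% of all probe sets were lower in adrenal gland than in liver). Of 8 other settings of the fit, 5 gave the adrenal against liver difference of Tek an adjusted p under 0.05 (down to 0.0026). Between pancreas and liver 0 of 6 members differed by limma, where 5.83% of all probe sets were lower in pancreas, with 2 at an unadjusted p under 0.05, as were 24.6% of all probe sets: both Ptprb probe sets (-1.17 and -1.22, adjusted p = 0.18 and 0.14).

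With AMG A no comparison of a member with its controls passed the limma test. In adrenal gland at 30 mg/kg Tek was 0.44, 0.42, 0.54 and 0.37 against 0.72, 1.50, 1.90 and 0.77 in controls, a difference of -0.78 (interval -1.27 to -0.29, adjusted p = 0.56). The first Ptprb probe set was at 0.44, 0.25, 0.10 and 0.20 against 0.58, 1.69, 1.96 and 1.03, a difference of -1.07 (interval -1.73 to -0.41, adjusted p = 0.54). Both genes were wholly below control, as 2.3% of all probe sets were. Angpt1 differed by -0.97 (adjusted p = 0.80) and Tie1 by -0.69 (adjusted p = 0.99), each with overlap. In adrenal gland 3 of 12 comparisons with AMG A reached an unadjusted p under 0.05, and in pancreas 1 of 12, that of the first Ptprb probe set at 30 mg/kg (-1.16, adjusted p = 0.68), where 3.67% and 6.72% of all probe sets did at the 2 doses. Adrenal Tie1 of the AMG A controls was 0.97, 0.06, 0.44 and 0.00, below every day 14 control of the AMG B study, so each compound was read against its own controls. Of the 31042 probe sets 0.0% were called by limma in adrenal gland at either AMG A dose and 0.00322% in pancreas at either dose, with 3.47% and 5.8% of those in adrenal gland at an unadjusted p under 0.05.

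In the livers of the AMG A study, 3 of 18 comparisons of Tie1, Angpt2 and Ptprb with controls reached an unadjusted p under 0.05, as did 7.19% to 12.6% of all probe sets, and 0 were called by limma. Of all 15866 probe sets measured there, 0.0378%, 0.0126% and 0.0063% were called at 3 mg/kg on days 1, 4 and 14, and 0.366%, 0.0693% and 0.353% at 30 mg/kg. On day 1 at 3 mg/kg the first Ptprb probe set was at -1.29, -1.20, -1.40 and -1.31 against -1.19, -1.16, -0.67 and -0.53 in controls. The groups were just apart, as 2.08% of all probe sets were in this direction (difference -0.41, adjusted p = 0.34). On day 14 at 30 mg/kg the differences were 0.06 for Tie1 (interval -0.59 to 0.72), -0.12 for Angpt2 (interval -0.30 to 0.05) and -0.23 for Ptprb. These scores stand on the smaller table and are not set beside the AMG B livers.

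At 3 mg/kg, the dose both studies share, the effects of AMG B and AMG A on day 14 were compared in adrenal gland and pancreas, 12 tests in all, with p-values adjusted over all probe sets of a tissue. By limma 0 of 12 passed (0.00322% of all probe sets were lower in adrenal gland and 0.0% in pancreas), and 1 in each tissue had an unadjusted p under 0.05, as had 4.59% and 9.37% of all probe sets. The adrenal Tek effect was more negative under AMG B by 0.90 (difference -0.90, interval -1.59 to -0.21, adjusted p = 0.98). The low-dose Tek values were 0.65, 1.14, 1.18 and 1.06 with AMG A against AMG A controls of 0.72 to 1.90. For Tie1 the difference of effects was -1.27 (interval -2.60 to 0.06) in adrenal gland and 1.21 (interval -1.17 to 3.59) in pancreas. Without animal 30 the pancreatic Tie1 effect of AMG B at 3 mg/kg was -0.40, beside -0.55 for AMG A. In pancreas the Angpt2 effect was higher under AMG B by 0.89 (interval 0.01 to 1.77, adjusted p = 0.53), and the Tek effects differed by -0.48 (interval -1.56 to 0.59). Several of these intervals are wide, that of the first Ptprb probe set in pancreas running from -2.10 to 0.70, so similar action of the compounds at 3 mg/kg was not shown. The high doses differ, 30 mg/kg for AMG A and 60 mg/kg for AMG B, and no test was made between them.

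**Figure D5:**
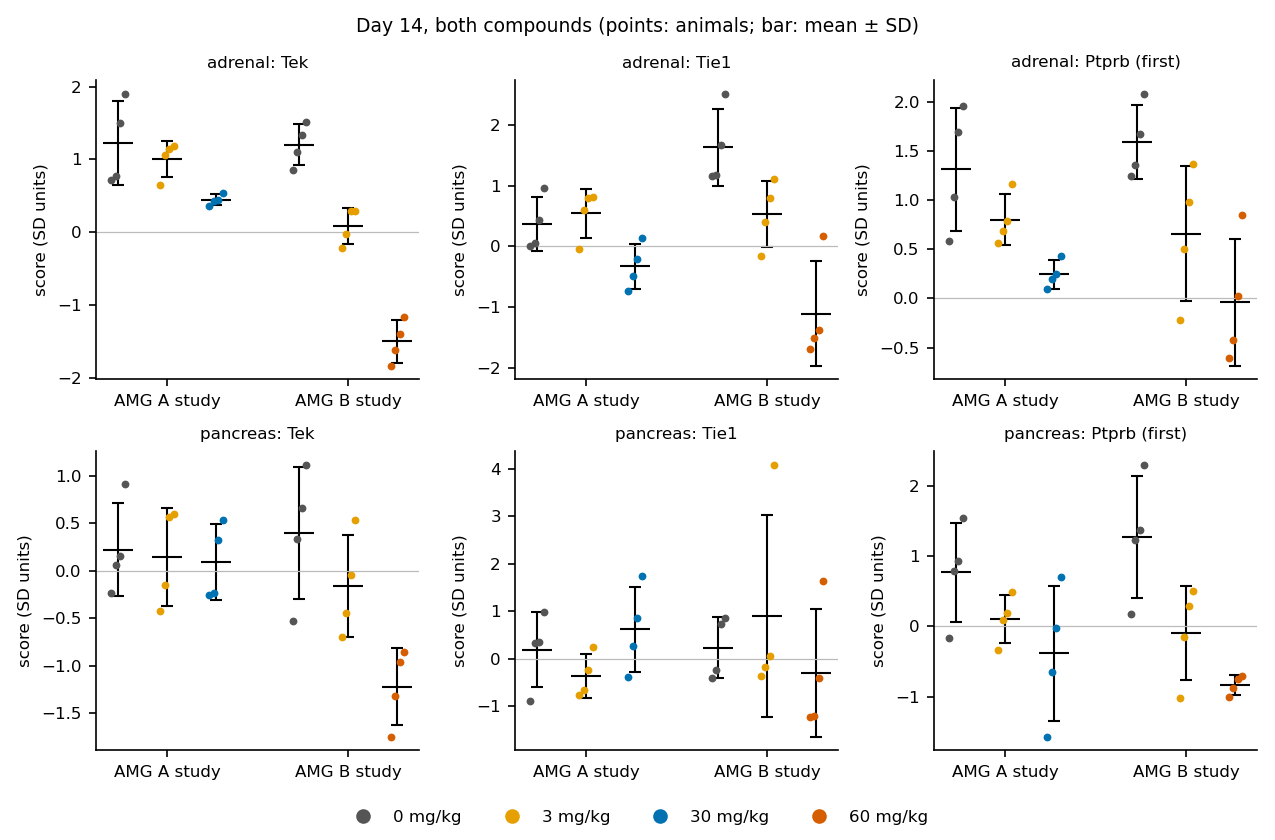
Scores (y axis, SD units) of Tek, Tie1 and the first Ptprb probe set in adrenal gland and pancreas on day 14 by compound and dose (0, 3 and 30 mg/kg of AMG A; 0, 3 and 60 mg/kg of AMG B); each point is 1 animal and each dash with whiskers the mean ± SD of 4. Adrenal Tek is 0.45 on average at 30 mg/kg of AMG A and -1.50 at 60 mg/kg of AMG B, doses that are shown side by side and not compared.

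The members were set against each other over every array of the larger table, each tissue scaled on its own. These correlations describe arrays that share animals, tissues and dose groups. Tek followed the first Ptprb probe set most closely among the members (r = 0.71), then Tie1 (r = 0.53) and the second Ptprb probe set (r = 0.48), and the Ptprb probe sets followed each other at 0.60. Tek showed little relation to the ligands, at 0.073 for Angpt1 and -0.12 for Angpt2, and the ligands followed each other at 0.20. Of the 13975 other genes compared, those most like Tek were Emcn (r = 0.74), which encodes the endothelial sialomucin endomucin, Fam167b (0.68) and Tmem204 (0.62). Those most like Tie1 were Ets1 (0.64), an endothelial transcription factor, Mmrn2 (0.63) and Ggta1 (0.59). Angpt2 had Filip1l (0.68), Hif1a (0.62) and Emilin1 (0.61) nearest, Angpt1 had Sorl1 (0.50), Mpp4 (0.50) and Acot2 (0.49), and the second Ptprb probe set had Wasl (0.59), Mtdh (0.58) and Klf13 (0.56).

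Other genes of the pathway were read from a list of 35 signalling partners, regulators and targets, of which 29 were measured. Under AMG B at 60 mg/kg 2 of the 29 passed in adrenal gland on day 1, where 0.335% of all probe sets passed in either direction, and 1 on day 4 (0.889%). On day 14 the test was passed by 3 of the 29 in each tissue, where 5.96% of all probe sets passed in adrenal gland, 5.66% in liver and 9.88% in pancreas. In pancreas 3 of 29 lies near the share of all probe sets. The genes named there are therefore single genes and no result for the list. Of all probe sets 3.12%, 2.96% and 4.98% rose in these day 14 comparisons. Ets1 fell in adrenal gland by 0.34, 0.49 and 0.39 on days 1, 4 and 14 and in liver by 0.35 on day 14. Grb14, an adaptor that binds activated receptor kinases, fell by 1.46 in adrenal gland and by 0.60 in liver on day 14. Rab5a, a GTPase of early endosomes, rose by 0.83 in adrenal gland on day 1, 0.57 in liver on day 14 and 1.58 in pancreas. Map2k1, the kinase MEK1, rose by 1.74 in adrenal gland and 1.50 in pancreas on day 14, and Nos3, the endothelial nitric oxide synthase that lies downstream of Tek and Akt, fell by 2.91 in pancreas. These day 14 calls held without animal 35 in adrenal gland and in liver and without animal 33 in pancreas. The median difference of the list was -0.10 in liver, -0.078 in adrenal gland and 0.49 in pancreas on day 14, against 0.00070, 0.00035 and 0.041 over all genes, and it was -0.16 in adrenal gland without animal 35 and 0.26 in pancreas without animal 33.

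Some general endothelial markers were lower in adrenal gland and liver. Of 25 such genes 23 were measured, and under AMG B at 60 mg/kg 1, 5 and 4 of them fell in adrenal gland on days 1, 4 and 14 and 5 in liver on day 14, with 0 higher. All probe sets fell at shares of 0.18%, 0.593% and 2.85% in these adrenal comparisons and 2.71% in liver. In adrenal gland Emcn fell by 1.35 on day 1, when Tek was the called member, and Mmrn2 and Plvap were among those that fell on days 4 and 14 (-2.20 and -0.76, then -1.87 and -0.81). The median difference over the 23 genes was -0.16, -0.56 and -0.43 in adrenal gland on these days and -0.25 in liver. The mean endothelial score was 0.60 to 0.78 in day 14 adrenal controls and -0.28 to 1.11 at 60 mg/kg, the highest being animal 35. Without animal 35 the adrenal count on day 14 was 7 and the median -0.76, and in liver the count was again 5, with S1pr1 and Calcrl lost (adjusted p = 0.11 and 0.065) and Pecam1 and Lmo2 gained (adjusted p = 0.038 and 0.017).

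In pancreas 2 of the 23 endothelial genes fell, Nos3 (also on the pathway list) and Fli1, where 4.9% of all probe sets fell. The list's median difference there was -0.16, and animal 33 had a mean endothelial score of 1.22 against -0.66 to -0.38 in the other 3 arrays at 60 mg/kg. Without animal 33 the count was 2, Nos3 and Eng, the median was -0.67, and Fli1 no longer passed (adjusted p = 0.054).

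Markers of other cell types moved in the same tissues. Of 8 macrophage genes, C1qa, C1qb and C1qc, the chains of complement C1q, fell in adrenal gland on day 1, the day on which Tek was called (-0.52, -0.75 and -0.84). In that comparison 0.18% of all probe sets fell. On day 4 no macrophage gene passed in adrenal gland, and Mrc1 fell in liver (-1.56). On day 14 the count of macrophage genes that fell was 4 of 8 in adrenal gland and 6 of 8 in liver, where 2.85% and 2.71% of all probe sets fell. Without animal 35 it was 6 of 8 and 8 of 8, where 2.42% and 2.14% of all probe sets fell. In liver Lyve1, a receptor of lymphatic and liver sinusoidal endothelium, fell on days 1, 4 and 14 (-2.01, -1.84 and -1.86). No other gene of the 7 measured on the lymphatic endothelium list passed there, and the list's median difference on day 14 was -0.099. Of 4 red cell genes 1, 3 and 3 fell in liver on these days, where 0.0354%, 0.267% and 2.71% of all probe sets fell. Those on day 14 were Hba-a3 (-1.73), Hbb (-1.83) and Alas2 (-2.44). Hbb also fell in adrenal gland on day 4 (-1.35). Of 5 adrenal medulla genes Pnmt rose there on that day (2.16), where 92 of 31042 probe sets rose. How much of the fall in Tek, Tie1 and Ptprb goes with any of these markers was not tested.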

How the data were processed

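The authors deposited 2 tables of array scores, one of 31042 probe sets for adrenal gland, pancreas and the AMG B livers and one of 15866 for the 36 AMG A livers. RNeasy midi kits (Qiagen) were used for RNA, and 5 ug of it was biotin-labelled in 1 cycle, per the labels' protocols. Tested on the tables, the 15866 shared probe sets have a mean near 0 and an SD near 1 over the arrays of both tables together. The 15176 probe sets of the larger table alone have them over its own arrays. Within the smaller table scores are not centred, and the median score of an AMG A liver array was near -0.76. How signals were summarised and standardised is not given in the sources used here. Day 14 control titles in adrenal gland and pancreas name no compound, and their study was taken from liver titles with the same animal number. Arrays have no read depth, and their number limits the precision.

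The scores were fitted with limma 3.58.1 in R 4.3.3 (a mean per group, contrasts, eBayes with trend). Livers were fitted per study, whereas adrenal gland and pancreas were each fitted with both studies together. Tissues were compared in a joint fit of the day 14 arrays of a study. Each p-value was two-sided. Within each of 51 contrasts it was adjusted by the Benjamini-Hochberg method over all probe sets of a table, and the threshold was 0.05. Nothing says how animals were allocated to groups or assayed, so the p-values measure the spread between the animals sampled. Every probe set annotated to 1 member gene was reported in each contrast, and list genes were named where they passed. The fit was tested on simulated data. The members and lists were chosen with earlier results of these data known. Same-numbered arrays of different tissues come from 1 animal, and their deviations correlated at a median of 0.015 to 0.049, against -0.017 to -0.0059 for other animals of the group. Alternatives were array medians subtracted, quantile normalization, no trend, the compared groups alone, 1 probe set per gene, the mean of a gene's probe sets, array weights, the animal as a block and leaving out each animal. Genes are named without positions, since no genome build is stated. Likeness is Pearson's r of scores scaled within tissue.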

Additional observations from a re-analysis of the deposited data

Results flagged for a closer look

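In groups of 4 animals, an animal was picked out where its gap to the nearest of the others, divided by the range of the group, exceeded Dixon's 95% critical value for 4 samples. Of 189 groups of member scores 10 passed this, where chance picks about 1 in 20. In adrenal gland, Tie1 at 60 mg/kg of AMG B on day 14 was high in animal 35 (ratio 0.834, score 0.17 against -1.69 to -1.38 in the others), and the second Ptprb probe set at 30 mg/kg of AMG A was low in animal 3035 (0.962, -0.94 against -0.25 to -0.22). In pancreas, Tie1 at 3 mg/kg of AMG B was high in animal 30 (0.907, 4.08 against -0.37 to 0.05), and Angpt1 in the AMG B controls was high in animal 26 (0.915, 0.40 against -0.53 to -0.45). In liver on day 1 of the AMG B study, animal 6 at 3 mg/kg was low for Tek (0.898) and for the first Ptprb probe set (0.861), and animal 9 at 60 mg/kg was high for Tie1 (0.913) and for the second Ptprb probe set (0.875). In livers of the AMG A study at 30 mg/kg, Angpt2 was low in animal 3035 on day 14 (0.946) and Tie1 in animal 3029 on day 4 (0.922).

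Effects differed between settings of the study by their own test for 2 probe sets. The adrenal effect of 60 mg/kg of AMG B on the first Ptprb probe set was lower on day 14 than on day 1, with a difference of -1.75, and that on Angpt1 was lower in adrenal gland than in pancreas on day 14, with a difference of -1.30. Of all probe sets 0.49% and 3.74% were lower in these comparisons. The calls failed without any 1 of 13 of 16 and of 6 of 8 animals. They also failed by limma on the compared groups alone (adjusted p = 0.11 and 0.082).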

How the results depend on the processing

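Counts of member genes passing the test were compared over the 51 contrasts, of which 38 kept their count within 1.5 times under each alternative run. On the compared groups alone the count went from 3 to 0 (liver, 60 mg/kg, day 14), from 1 to 0 (liver, 60 against 3 mg/kg, day 14; adrenal day 14 against day 1 effect; Angpt1 between adrenal gland and pancreas), from 2 to 0 (adrenal, 60 mg/kg, day 4; 60 against 3 mg/kg, day 14), from 3 to 1 (adrenal, 60 mg/kg, day 14), from 2 to 1 (pancreas, 60 mg/kg) and from 0 to 1 (adrenal against liver effect), with fewer arrays behind the spread. Quantile normalization gave 1 for liver at 60 mg/kg, 0 for its doses compared, 1 for adrenal 3 mg/kg on day 1, 1 for adrenal doses compared, 0 for the adrenal day difference, 1 for adrenal against liver and 3 for adrenal against pancreas effects. Array weights gave 1 for liver at 60 mg/kg, 0 for its doses, 1 for adrenal 3 mg/kg on day 1, 1 for adrenal against liver, 0 for adrenal against pancreas and 1 for control pancreas against liver. The mean of probe sets gave 1, 0, 1 and 1 for adrenal 3 mg/kg on day 1, the adrenal day difference, adrenal against liver and control pancreas against liver. With 1 probe set per gene liver doses and the day difference gave 0 and adrenal against liver 1, and subtracting array medians gave 0 for the day difference. The cause of these moves was not tested. Leaving out each animal gave 0 to 3 for liver at 60 mg/kg, 0 to 1 for liver doses, adrenal 3 mg/kg on day 1, the day difference, adrenal against pancreas and pancreas against liver effects, 1 to 2 for adrenal doses and control pancreas against liver, and 2 to 3 for control adrenal days (4 with each animal kept). The mean of the Ptprb probe sets turned the control pancreas against liver value of the first to -0.0051 (adjusted p = 0.99).

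Of 33 called member results, the compared groups alone ended 17, quantile normalization 7, the mean of probe sets 6 (and turned 1), array weights 5, array medians 1, no trend 1 and leaving out animals 63 of 224 refits. Adrenal Tek on days 1, 4 and 14, Tie1 on days 4 and 14, Ptprb on day 14 and the pancreas calls lost none by leaving out an animal. With the animal as a block, the pairing of tissues changed 0 of 13 calls (within-animal correlation 0.020 and 0.024). Of 240 uncalled results 12 passed under some alternative. List counts on day 14 were also taken without the arrays that stood apart, an alternative chosen after seeing the data. The median difference over all probe sets lay within -0.088 and 0.10 in each contrast under each scaling.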

Other observations

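Other vascular gene lists moved in part in the same arrays under AMG B at 60 mg/kg. Of 10 VEGF ligands and receptors, Flt1 and Nrp1 fell in adrenal gland on day 4 (-1.14 and -2.75), where 0.593% of all probe sets fell. Nrp1 fell in liver on day 14 (-0.72), a call lost without animal 35 (-0.69, adjusted p = 0.051). In pancreas Vegfa rose by 1.05 and Kdr fell by 0.73, and the Kdr call was lost without animal 33 (-0.66, adjusted p = 0.053).

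Of 17 measured tip-cell and VEGF-responsive genes, 3 rose in adrenal gland on day 14, where 3.12% of all probe sets rose. These were Esm1 (3.36), Plaur (2.32) and Insr (0.37). Animal 35 had a mean list score of 2.28 against 0.02 to 0.11 in the other 3 arrays of its group, and without it the rise of Esm1 was 1.54 (adjusted p = 0.0013) while Plaur and Insr no longer passed (0.97 and 0.32, adjusted p = 0.35 and 0.11). The list's median difference was 0.37 with animal 35 and -0.0014 without. In liver on day 14 Igfbp3 (-1.36) and Col4a1 (-0.36) fell, where 2.71% of all probe sets fell, and Insr rose (1.21), where 2.96% rose. These liver calls held without animal 35. Dll4 (-2.06) and Aplnr (-1.53) fell in pancreas, where 4.9% fell, and held without animal 33.

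Among 13 pericyte and smooth muscle genes, Rgs5 fell in adrenal gland on days 4 and 14 (-1.81 and -1.66) and rose in liver on day 14 (1.29, adjusted p = 0.0059), and both day 14 calls held without animal 35. Acta2 (1.56) and Des (1.31) passed in adrenal gland on day 14 with animal 35, whose mean list score was 1.67 against -0.16 to 0.03 in the other 3 arrays, and not without it (0.98 and 0.42, adjusted p = 0.067 and 0.35). In pancreas, where 4.98% of all probe sets rose, Myh11 (3.28) and Acta2 (2.28) passed with animal 33 and not without it (2.02 and 1.58, adjusted p = 0.15 and 0.062).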
